A study of Mus musculus with 30 samples.

Results

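Tubulin isotypes are the near-identical proteins from which a cell builds its microtubules, and 10 of their genes were described here, 4 encoding alpha-tubulin (Tuba1a, Tuba1b, Tuba1c, Tuba4a) and 6 encoding beta-tubulin (Tubb2a, Tubb2b, Tubb3, Tubb4b, Tubb5, Tubb6). They were chosen by symbol and found through their Ensembl identifiers among the 29861 genes of the deposited table, of which 13644 reached 1 TPM in 3 or more libraries and were tested. TPM, the deposited unit, is a level per transcript length and relative to the rest of the same library. All 10 genes passed that filter. Tubb3 passed only through Cardamonin (2 libraries), AEG 3482 (3 libraries) and Podofilox (1 library), so its changes in those groups are given as a description of a low gene, and counts are also given without it.

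The cells were a primary fibroblast line, CCG-HTA-1, grown from the tails of UMHet3 mice, which are bred from a cross of several strains, and taken at passage 4. Each culture received 1 of 8 compounds or the solvent DMSO, and RNA was collected after 48 hours. The groups were Podofilox, Cardamonin, AEG 3482, Antimycin A, Dihydrorotenone, Diphenyleneiodonium Cl, BerberineA and Clofilium tosylate with 3 libraries each, and DMSO with 6, which makes 30 libraries in 9 groups. The labels give donor ages of 5 to 8 weeks, except for Dihydrorotenone replicate 1, labelled 8 to 11 weeks, and no genotype beyond the stock and no dose is given in the sources used here. All libraries came from 1 line, so p-values measure how far its cultures or libraries spread and say nothing of animals. Library numbers ran consecutively within groups, so an effect of library order and an effect of the compound cannot be told apart.

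Podofilox, also called podophyllotoxin, binds beta-tubulin and keeps dimers from joining the microtubule. Antimycin A and Dihydrorotenone inhibit the mitochondrial respiratory chain, Diphenyleneiodonium Cl inhibits flavin-dependent enzymes, Clofilium tosylate blocks potassium channels, and Cardamonin is a plant chalcone. Whether any compound other than Podofilox also acts on microtubules was not tested. Microtubules are polymers of dimers of 1 alpha and 1 beta subunit that exchange with a pool of free dimers. Cells are known to hold that pool steady by autoregulation: when free dimers accumulate, TTC5 binds the first residues of new tubulin as they leave the ribosome, and SCAPER and the CCR4-NOT deadenylase then bring about decay of the mRNA being translated. An agent that frees dimers is therefore known to lower tubulin mRNA in many cell lines, and the comparison of Podofilox with DMSO bears on that question in fibroblasts.

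Because this decay is directed by the start of the coding sequence, the first 24 bases are shown for the members, with the first 12 in capitals. They were read 5′ to 3′ from GENCODE M21 transcripts of GRCm38. That of Tubb6 is not shown.
Tuba1a: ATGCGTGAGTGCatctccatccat
Tuba1b: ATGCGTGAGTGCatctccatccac
Tuba1c: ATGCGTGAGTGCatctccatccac
Tuba4a: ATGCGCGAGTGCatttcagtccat
Tubb2a: ATGCGCGAGATCgtgcacatccag
Tubb2b: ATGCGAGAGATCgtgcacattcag
Tubb3: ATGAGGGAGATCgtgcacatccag
Tubb4b: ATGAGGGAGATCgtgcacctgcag
Tubb5: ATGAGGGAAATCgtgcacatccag
The 12 capital bases were the same in Tuba1a, Tuba1b and Tuba1c, and the same in Tubb3 and Tubb4b. The other 4 genes shown each had a base sequence of their own there. These are differences of bases only. Read as codons, every alpha start encodes Met-Arg-Glu-Cys and every beta start shown Met-Arg-Glu-Ile. The coding sequences, stop included, were 1335 (Tubb5) to 1356 (Tuba1a and Tuba1b) bases long.

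How much sequence the members share bears on every value that follows, since reads common to several genes have to be divided between them. Of the 31-base words in its transcripts, Tuba1a shared 78.6% with other genes, Tuba1b 78.7% and Tuba1c 55.3%, mostly with each other and with processed pseudogenes. Their coding sequences were 97.6% to 98.4% identical. AC157548.1, which has a long non-coding transcript, held 53.58%, 61.1% and 39.32% of their words in that order. Gm49450, which has a protein-coding transcript, held 28.99% to 41.85%. Neither is among the listed genes, so the sums given below leave them out. In Tuba4a the shared portion was 38.4%, nearly all of it (35.6% of its words) with Stk16, a kinase gene on the opposite strand of chromosome 1 whose transcripts overlap it, and without a statement that reads were assigned by strand the reads of this pair cannot be told apart. Tubb2a shared 56.4% of its words and Tubb2b 43.1%. Besides each other, the pseudogene Tubb2a-ps2 held 30.6% of the words of Tubb2a and 27.0% of those of Tubb2b. It is not among the listed genes and is left out of their sum. Tubb4b shared 53.0% with pseudogenes that had at most 0.166 TPM in any library. Tubb3, Tubb5 and Tubb6 stood apart from the rest, at 3.21%, 3.50% and 3.24%, so their values depended least on how shared reads were divided.

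**Figure D1:**
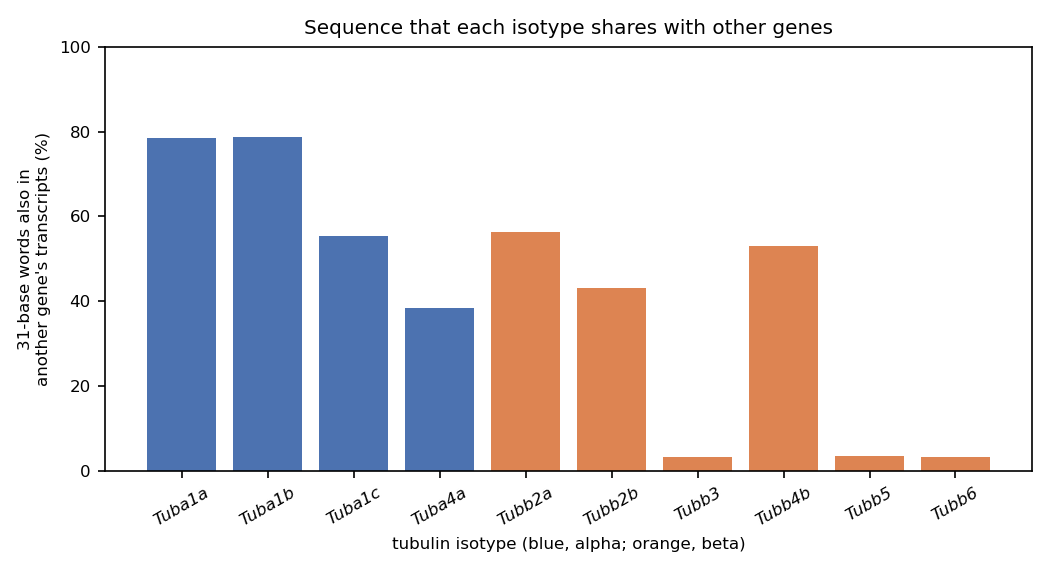
Percentage of each isotype's 31-base words (vertical axis, %) that also occur in transcripts of another gene, for the 4 alpha (blue) and 6 beta (orange) members. Tuba1a and Tuba1b are highest, at 78.6% and 78.7%, and Tubb3, Tubb5 and Tubb6 lie below 4%.

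Tubb2a and Tubb2b, neighbours on chromosome 13, differed at 47 of 1338 coding bases (96.5% identity). The last 60 coding bases, which encode the acidic tail that modifying enzymes act on, are shown with the differing bases in capitals, because the pair behaved differently with Podofilox.
Tubb2a: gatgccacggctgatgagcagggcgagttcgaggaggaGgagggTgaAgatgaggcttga
Tubb2b: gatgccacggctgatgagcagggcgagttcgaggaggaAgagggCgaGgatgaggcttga
Only 3 of those 60 bases differed, and read as codons both ends encode the same residues. Other pairs of beta genes were 80.7% to 86.5% identical.

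The genes lie on 7 chromosomes of GRCm38. Tuba1a (15:98949837-98953703), Tuba1b (15:98931425-98934565) and Tuba1c (15:99029891-99038110) form a cluster on chromosome 15. Tubb2a (13:34074274-34078007) and Tubb2b (13:34126748-34130466) are on chromosome 13. Tuba4a is at 1:75214228-75219865, Tubb4b at 2:25222160-25224702, Tubb3 at 8:123411424-123422015, Tubb5 at 17:35833921-35838306 and Tubb6 lies on chromosome 18. Values are for whole genes, exons of all transcripts together. Tubb3 also overlaps Gm20388, a same-strand gene model with a mean of 48.4 TPM. The 31-base words that Tubb3 shares amount to 3.21%.

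In DMSO, the 10 genes summed to 1078 ± 61 TPM (SD, n = 6), or 0.115% of the TPM listed. Among alpha genes Tuba1a, known from developing neurons, was the highest at 367 ± 31 TPM. Tuba1b, an alpha gene used by most cells, had 211 ± 20 TPM. Tuba1c had 64.1 ± 3.5 TPM and Tuba4a, whose protein lacks the encoded terminal tyrosine of other alpha isotypes, 44.8 ± 4.0 TPM. Among beta genes Tubb5, the broadly used isotype, had 208 ± 7 TPM and Tubb4b, a broadly expressed isotype also found in cilia, 91.0 ± 5.3 TPM. Lower on the same per-length scale were Tubb2a at 51.6 ± 2.1 TPM, Tubb6 at 34.6 ± 2.9 TPM and Tubb2b at 4.77 ± 0.44 TPM. Tubb3, a neuronal marker, had 0.580 ± 0.143 TPM.

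**Figure D2:**
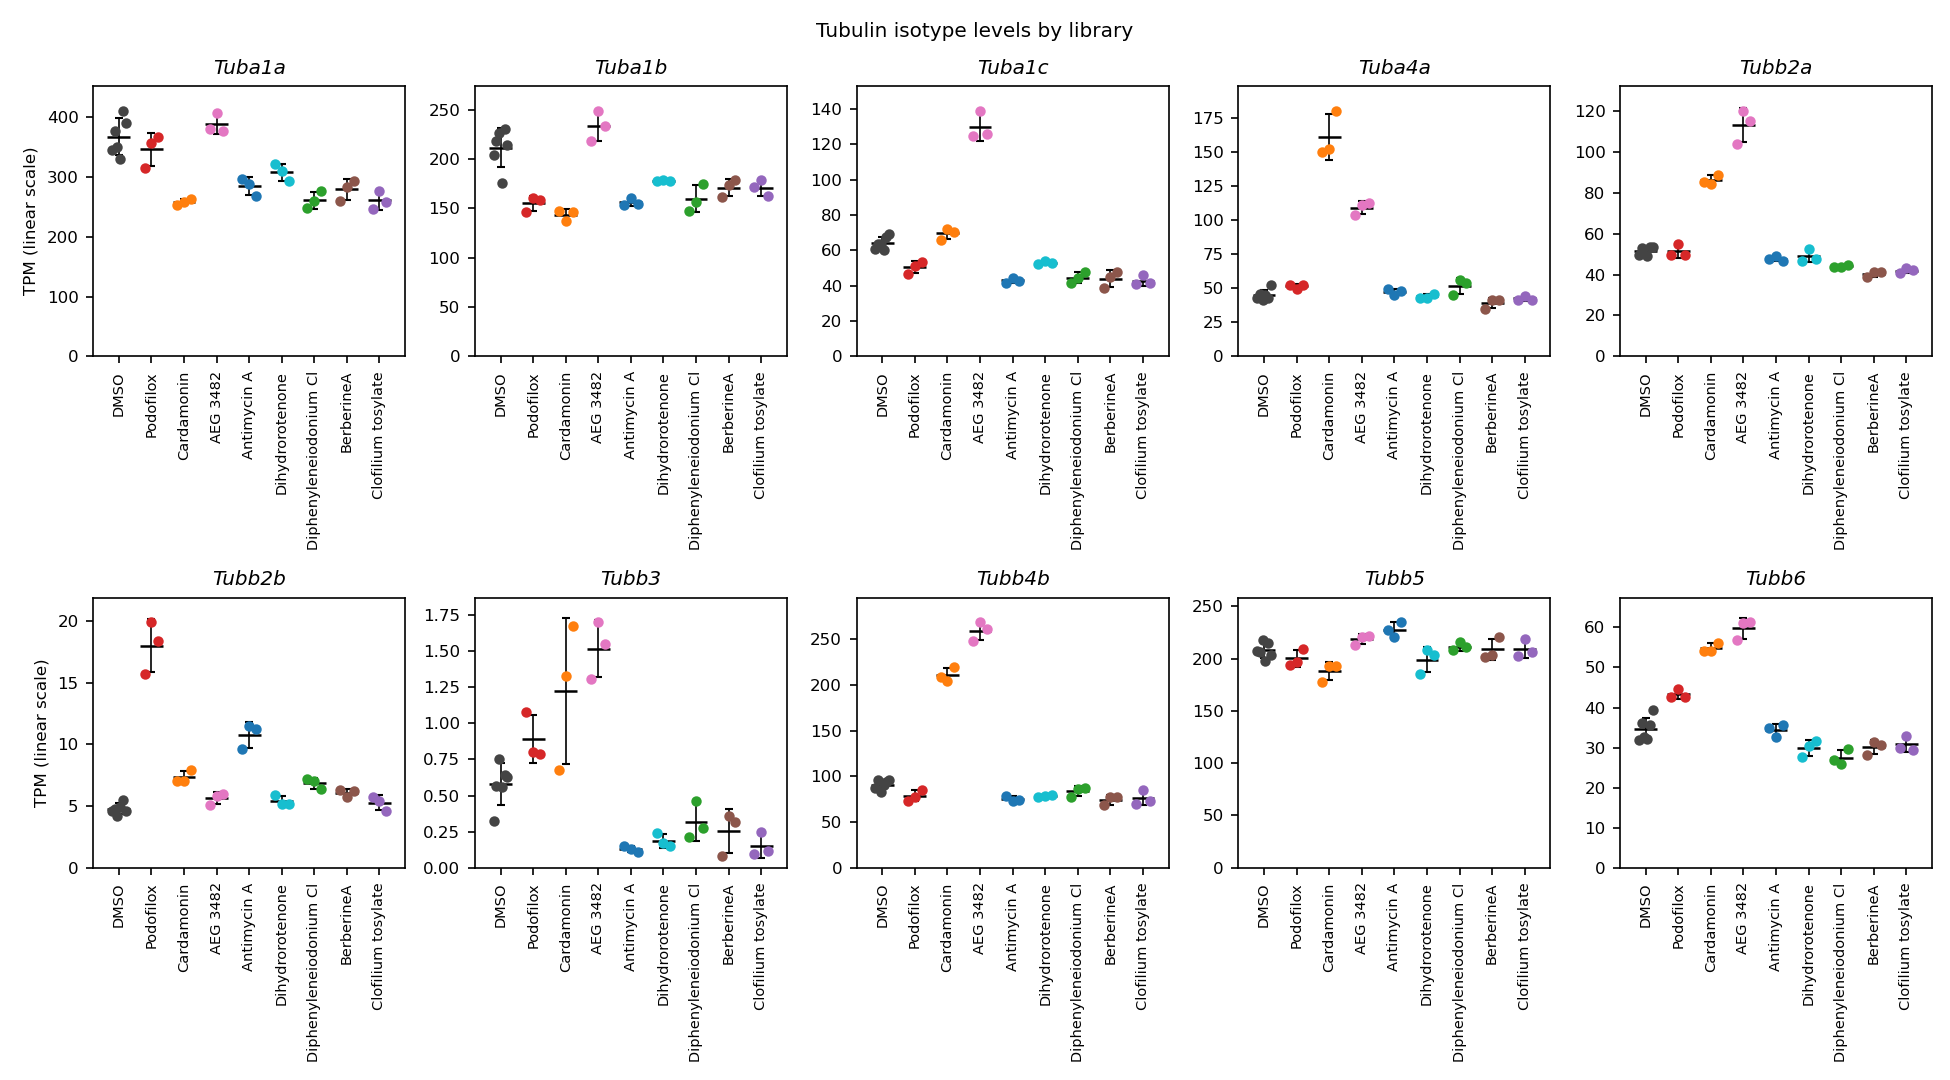
TPM (vertical axes, linear from 0, a different range in each panel) of the 10 isotypes in every library. Points are libraries, horizontal bars group means and whiskers 1 SD (n = 3, DMSO n = 6). Tubb2b is highest with Podofilox (15.7 to 19.9 TPM), Tuba4a with Cardamonin (150 to 180 TPM), and Tubb5 lies between 178 and 235 TPM in every library.

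The tubulin genes did not move in 1 direction with Podofilox. Against DMSO, 3 members fell (Tuba1b, Tuba1c, Tubb4b), 3 rose (Tubb2b, Tubb6, Tuba4a) and 4 did not pass the test (Tuba1a, Tubb2a, Tubb3, Tubb5), by limma with an adjusted p threshold of 0.05. The 6 of 10 called compare with 46.2% of all 13644 genes called in the same comparison (3573 higher and 2725 lower), and the count was 6 without Tubb3 as well. Ranges of the 3 Podofilox and 6 DMSO libraries did not overlap for 5 members, a count for which no share of all genes is given here. The median change on the log2(TPM + 1) scale was -0.03 over the members and 0.04 over all genes tested. Summed over the 10 genes, the libraries had 936, 1014 and 1036 TPM with Podofilox against 987 to 1154 TPM (median 1085) with DMSO, ranges that overlapped.

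Tubb2b made the largest move of the 10 members with Podofilox. This beta isotype is best known from the developing brain. Its 3 Podofilox libraries had 15.7, 19.9 and 18.4 TPM, whereas the DMSO libraries ranged from 4.20 to 5.51 TPM (median 4.70). Every Podofilox library was above every DMSO library, and the ratio of means was 3.77. The log2 fold change was 1.72 ± 0.08 (SE; 95% interval 1.55 to 1.88; limma adjusted p = 8.69e-15). Its near twin Tubb2a had 49.5, 55.2 and 49.6 TPM with Podofilox and 49.2 to 53.7 TPM (median 51.7) with DMSO. Those ranges overlapped, with a log2 fold change of -0.01 ± 0.05 (95% interval -0.10 to 0.09; limma adjusted p = 0.941). Added together as a check on how reads were divided, Tubb2a and Tubb2b had a geometric mean of 69.3 TPM with Podofilox and 56.3 TPM with DMSO, a log2 change of 0.29 with no test.

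Tubb6, a broadly expressed beta isotype that shares little sequence with other genes, also rose. It had 42.6, 44.7 and 42.6 TPM with Podofilox and 31.9 to 39.3 TPM (median 34.1) with DMSO. No library of one group fell within the range of the other, and the log2 fold change was 0.32 ± 0.06 (SE; limma adjusted p = 9.28e-05). Tuba4a had 52.3, 49.4 and 52.4 TPM against 41.3 to 52.3 TPM (median 43.7), and the ranges overlapped. Its log2 fold change of 0.20 ± 0.07 (limma adjusted p = 0.0299) did not pass the threshold without Podofilox replicate 1 (0.0957) or 3 (0.0979) or without DMSO replicate 1, 3 or 5 (0.0541 to 0.0615), nor with median-ratio scaling (0.0702) or quantile normalization (0.0583).

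The alpha genes Tuba1b and Tuba1c fell. Tuba1b had 146, 161 and 158 TPM with Podofilox and 176 to 230 TPM (median 216) with DMSO. All 3 treated libraries were below all 6 controls, with 0.734 of the DMSO mean and a log2 change of -0.44 ± 0.06 (SE; limma adjusted p = 3.56e-06). Tuba1c had 46.6, 51.2 and 53.2 TPM against 60.4 to 69.0 TPM (median 63.6), again without overlap, and its log2 fold change was -0.34 ± 0.06 (limma adjusted p = 5.21e-05). Tuba1a, which is 98.3% identical to Tuba1b in coding sequence, had 315, 358 and 366 TPM against 331 to 411 TPM (median 363). Those ranges overlapped, and the 95% interval of the log2 fold change, -0.21 to 0.04, leaves room for a small fall (limma adjusted p = 0.284). The sum of these 3 genes and the 5 listed pseudogenes that hold at least 20% of their words changed by -0.22 on the log2 scale, from a geometric mean of 649 to 555 TPM, with no test.

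Among the remaining beta genes, Tubb4b had 73.3, 77.2 and 85.4 TPM with Podofilox and 82.5 to 95.9 TPM (median 92.2) with DMSO. Podofilox replicate 3 lay within the control range, and the log2 fold change was -0.21 ± 0.06 (SE; limma adjusted p = 0.00614). The call was lost without Podofilox replicate 1 (adjusted p = 0.0678). Tubb5 had 194, 197 and 209 TPM against 198 to 217 TPM (median 207), ranges that overlapped, with a 95% interval of -0.14 to 0.03 for the log2 fold change (limma adjusted p = 0.317). Tubb3 stayed near 1 TPM, at 1.08, 0.803 and 0.788 TPM against 0.326 to 0.757 TPM (median 0.596). Although its Podofilox libraries were above the controls, the log2 fold change of 0.26 ± 0.12 did not pass (limma adjusted p = 0.0835).

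Summed over each class, Podofilox and DMSO overlapped. The alpha sum was 560, 619 and 630 TPM against 612 to 751 TPM (median 692) in DMSO, and the beta sum 376, 395 and 406 TPM against 375 to 403 TPM (median 392). Within the alpha pool, the share of Tuba1b was 25.8% ± 0.6 (SD, n = 3) with Podofilox and 30.7% ± 1.6 (n = 6) with DMSO, whereas that of Tuba1a was 57.4% ± 1.0 and 53.4% ± 1.2. Within the beta pool Tubb2b took 4.58% ± 0.44 of the TPM with Podofilox and 1.22% ± 0.10 with DMSO.

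**Figure D3:**
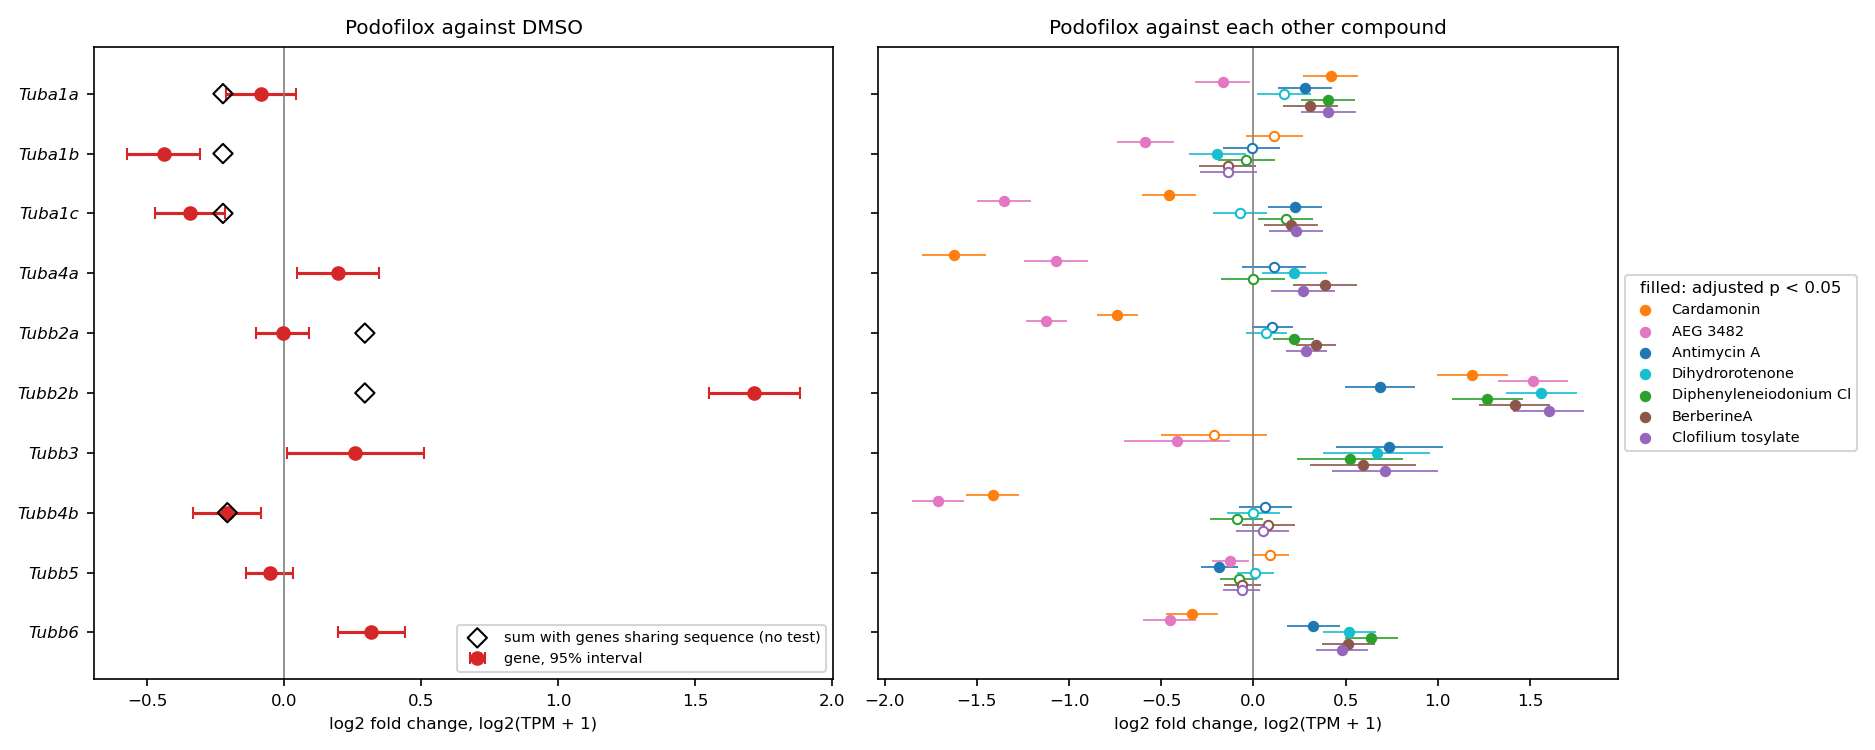
Log2 fold change on the log2(TPM + 1) scale (horizontal axes) of each isotype for Podofilox against DMSO (left; points with 95% intervals, open diamonds the sum of the gene and the genes sharing its sequence, with no test) and against each other compound (right; lines are 95% intervals and filled points have a limma adjusted p below 0.05). Tubb2b lies to the right in both panels, at 1.72 against DMSO and 0.69 to 1.60 against the other compounds.

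Direct contrasts between Podofilox and the other compounds, which compare the means of the treated groups while the spread is estimated from all 30 libraries, tested which of these differences went beyond what other treatments gave. Tubb2b was higher with Podofilox than with each of the 7 other compounds. The differences on the log2 scale ran from 0.69 ± 0.09 against Antimycin A (SE; limma adjusted p = 1.42e-06) to 1.60 ± 0.09 against Clofilium tosylate (limma adjusted p = 6.76e-13), and no range of libraries overlapped in any of the 7. Tubb6 was higher with Podofilox than with 5 compounds, by 0.32 (Antimycin A) to 0.64 (Diphenyleneiodonium Cl), and lower than with Cardamonin (-0.33) and AEG 3482 (-0.45), with limma adjusted p of at most 0.00047 in each of the 7. Summed with Tubb2a, the difference of Tubb2b turned to -0.43 against Cardamonin and -0.77 against AEG 3482, where Tubb2a itself was far higher than with Podofilox.

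Tuba1b, which fell against DMSO, did not differ past the threshold between Podofilox and 5 of the other compounds. Podofilox differed from Antimycin A by -0.01 in Tuba1b (95% interval -0.16 to 0.14), from Diphenyleneiodonium Cl by -0.04 (-0.19 to 0.12), from Cardamonin by 0.11 (-0.04 to 0.27), from BerberineA by -0.14 (-0.29 to 0.01) and from Clofilium tosylate by -0.14 (-0.29 to 0.02). It was lower than Dihydrorotenone by 0.20 ± 0.07 (limma adjusted p = 0.0346), a call that was lost in 7 of the alternatives, and lower than AEG 3482 by 0.59 ± 0.07 (limma adjusted p = 2.11e-07). In Tubb4b no difference passed between Podofilox and Antimycin A, Dihydrorotenone, Diphenyleneiodonium Cl, BerberineA or Clofilium tosylate, with differences of -0.09 to 0.08.

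Tuba1a, in contrast, was higher with Podofilox than with Antimycin A, Diphenyleneiodonium Cl, Cardamonin, BerberineA and Clofilium tosylate, by 0.28 to 0.42 (limma adjusted p of at most 0.00256). Tuba1c, which fell against DMSO, differed by 0.22 from Antimycin A, 0.17 from Diphenyleneiodonium Cl, 0.20 from BerberineA and 0.23 from Clofilium tosylate. Its differences were -0.07 from Dihydrorotenone, -0.46 from Cardamonin and -1.35 from AEG 3482. Across all members, 6 of 10 differed between Podofilox and Antimycin A (41.4% of all genes), 5 between Podofilox and Dihydrorotenone (45.2%, and 3 without Dihydrorotenone replicate 1 or 2 or Podofilox replicate 3), 5 between Podofilox and Diphenyleneiodonium Cl (42.7%) and 7 between Podofilox and Cardamonin (57.8%). The count was 7 against BerberineA (42.6%), 7 against Clofilium tosylate (39.1%) and 10 against AEG 3482 (60.3%). Without Tubb3 the 7 counts were 5, 4, 4, 7, 6, 6 and 9 in that order. In the contrasts with BerberineA and Clofilium tosylate all 7 were higher with Podofilox (6 without Tubb3), where 22.0% and 22.6% of all genes were. Against AEG 3482, 9 were lower (35.2% of all genes) and Tubb2b alone was higher (25.1%). Among the calls against AEG 3482, that of Tuba1a (limma adjusted p = 0.0472) was lost in 10 of 15 alternatives and that of Tubb5 (0.0273) in 7.

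Cardamonin and AEG 3482 raised more of the isotypes than the other 6 compounds did. With Cardamonin 9 of 10 members were called, 6 higher and 3 lower, where 70.3% of all genes were called (37.3% higher and 33.0% lower). With AEG 3482, 8 members rose and none fell, where 68.1% of all genes were called (41.3% higher and 26.8% lower). Without Tubb3 the counts were 8 and 7. The median change of the members was 0.50 with Cardamonin and 0.72 with AEG 3482, and that of all genes 0.03 and 0.10. Changes of at least 2-fold that passed the test were seen in 2 members with Cardamonin and 4 with AEG 3482. No share of all genes with changes of that size is given here.

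Tuba4a rose most with Cardamonin. The libraries had 150, 152 and 180 TPM with Cardamonin, 104, 111 and 113 TPM with AEG 3482, and 41.3 to 52.3 TPM (median 43.7) with DMSO. The 3 groups did not overlap. The log2 fold changes were 1.82 ± 0.07 (SE; limma adjusted p = 2.18e-17) and 1.27 ± 0.07 (limma adjusted p = 6.35e-14), or 3.59 and 2.44 times the DMSO mean. Stk16, which overlaps Tuba4a on the other strand, rose by 0.34 with Cardamonin and 0.43 with AEG 3482, and its part in the Tuba4a values was not tested.

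Tubb4b had 209, 204 and 219 TPM with Cardamonin and 248, 269 and 261 TPM with AEG 3482, against 82.5 to 95.9 TPM (median 92.2) with DMSO. All treated libraries were above all controls, and AEG 3482 above Cardamonin. On the log2 scale it rose by 1.21 ± 0.06 and 1.50 ± 0.06 (SE), with limma adjusted p of 2.02e-15 and 4.47e-17. Tubb2a followed the same order, with 85.4, 84.6 and 88.9 TPM for Cardamonin and 104, 120 and 115 TPM for AEG 3482 against 49.2 to 53.7 TPM for DMSO. Its log2 fold changes were 0.73 ± 0.05 and 1.12 ± 0.05 (limma adjusted p = 2.83e-13 and 9.95e-17), and no group overlapped another. Tubb6 had 54.0 to 56.2 TPM with Cardamonin and 56.8 to 61.3 TPM with AEG 3482 against 31.9 to 39.3 TPM, log2 fold changes of 0.65 ± 0.06 and 0.77 ± 0.06 (limma adjusted p = 3.95e-10 and 2.19e-11).

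Other alpha genes separated the same pair of compounds. Tuba1c had 125, 139 and 126 TPM with AEG 3482, above every DMSO library (60.4 to 69.0 TPM), with a log2 change of 1.01 ± 0.06 (SE; limma adjusted p = 2.1e-13). With Cardamonin it had 65.8, 72.3 and 70.4 TPM, which overlapped DMSO (0.12 ± 0.06; limma adjusted p = 0.0989). Tuba1a and Tuba1b fell with Cardamonin, to 253, 259 and 263 TPM and to 147, 137 and 146 TPM, all below the control libraries. Those log2 fold changes were -0.50 ± 0.06 and -0.55 ± 0.06 (limma adjusted p = 7.38e-08 and 2.88e-08). With AEG 3482 both ranges overlapped DMSO. Tuba1a did not pass (0.08 ± 0.06; adjusted p = 0.246), and the small rise of Tuba1b (0.15 ± 0.06; adjusted p = 0.047) was lost in 12 alternatives and turned to -0.01 with quantile normalization. Slc7a11, a cystine transporter gene with a non-coding transcript that holds 8.82% to 12.5% of the words of these 3 alpha genes, had 435 TPM with Cardamonin, 103 TPM with AEG 3482, 67.9 TPM with Podofilox and 19.2 TPM with DMSO, and its part in their values was not tested.

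Tubb3 and Tubb2b were the lowest members with Cardamonin and AEG 3482. Tubb3 had 0.677, 1.33 and 1.67 TPM with Cardamonin and 1.31, 1.70 and 1.55 TPM with AEG 3482 against 0.326 to 0.757 TPM, and only the AEG 3482 libraries were all above DMSO. Tubb2b rose with Cardamonin to 7.02, 7.03 and 7.90 TPM, all above the controls (0.53 ± 0.08; limma adjusted p = 2.2e-06), although less than with Podofilox. Its rise with AEG 3482, to 5.07, 5.83 and 5.96 TPM, overlapped the controls (0.20 ± 0.08; limma adjusted p = 0.0322) and was lost in 7 alternatives. Tubb5 did not share these rises. It fell slightly with Cardamonin, to 178, 193 and 193 TPM against 198 to 217 TPM (-0.14 ± 0.04; limma adjusted p = 0.00346; 0.0505 without Cardamonin replicate 1), and with AEG 3482 its 213, 221 and 222 TPM overlapped DMSO (limma adjusted p = 0.13).

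**Figure D4:**
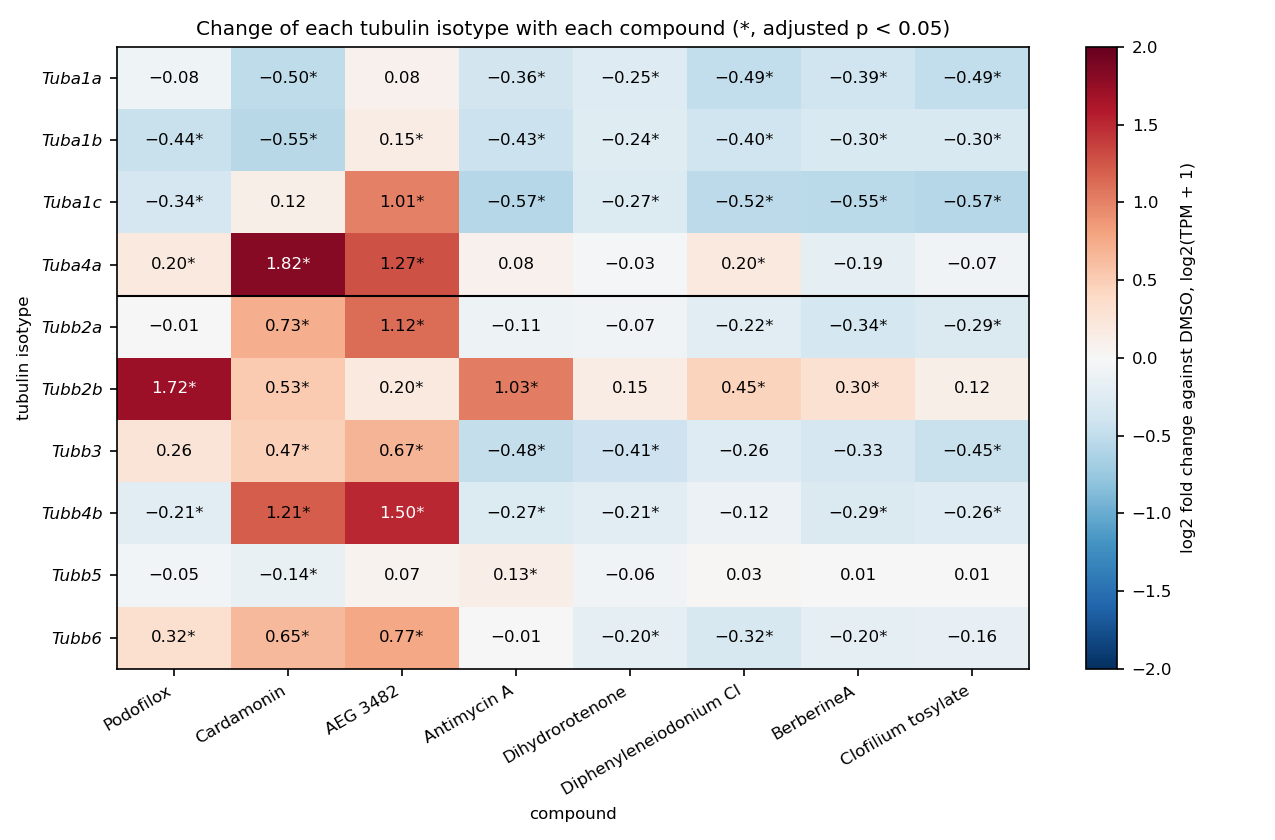
Log2 fold change against DMSO on the log2(TPM + 1) scale (colour and printed value) of each isotype (rows; alpha above the line, beta below) with each compound (columns). Asterisks mark limma adjusted p below 0.05. Red cells cluster under Cardamonin and AEG 3482, pale blue cells of -0.24 to -0.57 run along Tuba1a, Tuba1b and Tuba1c for the 5 compounds at the right, and Tubb2b with Podofilox stands at 1.72.

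With these unequal changes the make-up of both pools differed between groups. In DMSO, Tuba4a gave 6.54% ± 0.64 (SD, n = 6) of the alpha TPM, with Cardamonin 25.4% ± 1.7 (n = 3) and with AEG 3482 12.7% ± 0.5. Tuba1a went from 53.4% ± 1.2 to 40.9% ± 1.0 and 45.1% ± 0.8. In the beta pool, Tubb4b gave 23.3% ± 1.1 in DMSO, 38.5% ± 0.8 with Cardamonin and 39.4% ± 0.2 with AEG 3482, while Tubb5 gave 53.2% ± 1.7, 34.3% ± 1.1 and 33.2% ± 0.7. Tubb4b was thus the most abundant beta gene with Cardamonin and AEG 3482, and Tubb5 in the other 7 groups. With AEG 3482 the alpha sum was 827, 849 and 906 TPM and the beta sum 628, 667 and 678 TPM, both above all DMSO libraries. With Cardamonin the beta sum (534, 544 and 567 TPM) was above DMSO, and the alpha sum (616 to 660 TPM) overlapped it.

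**Figure D5:**
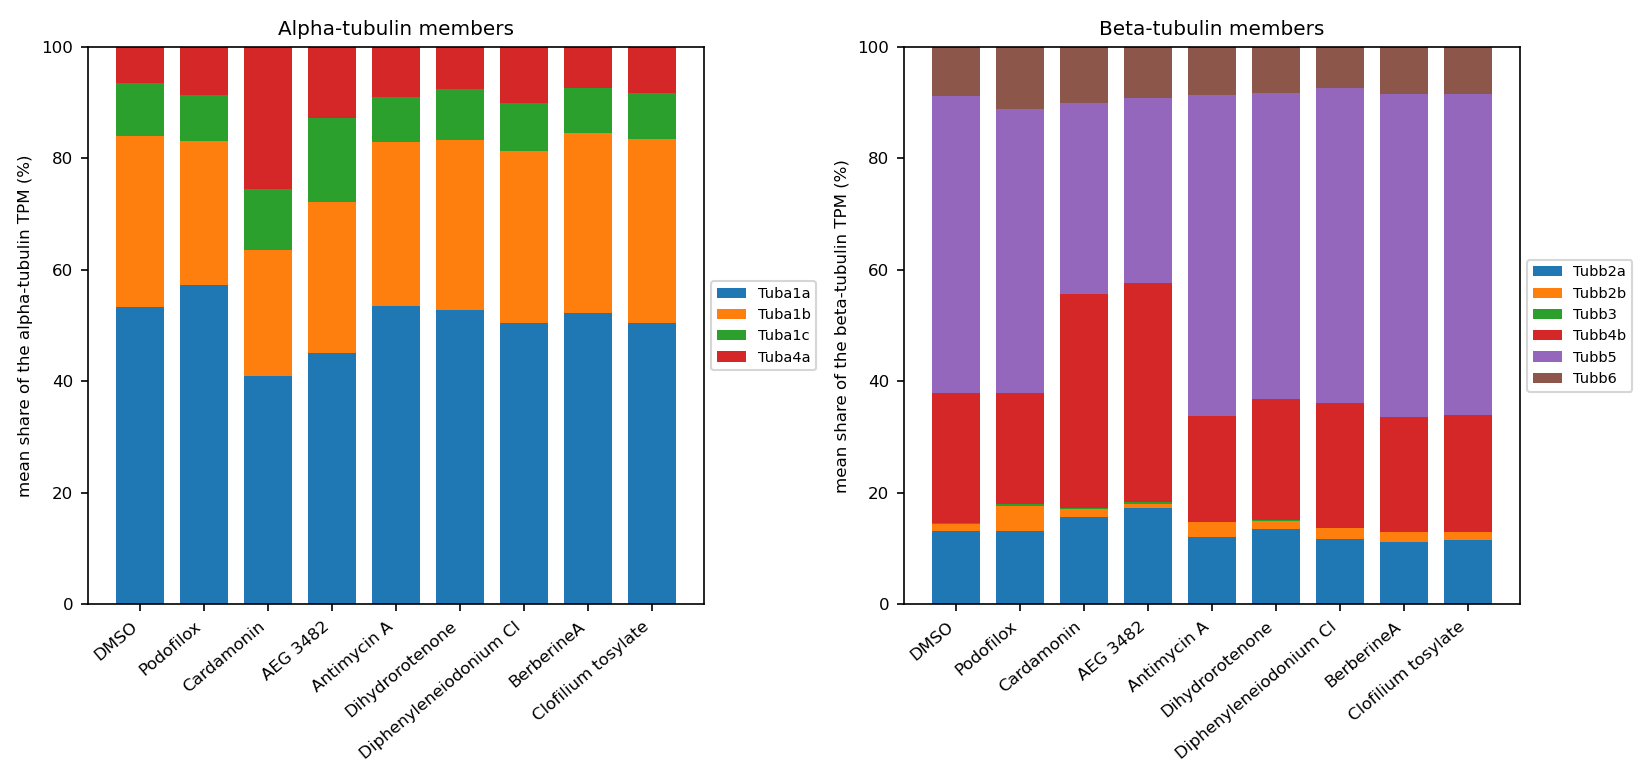
Mean share of the summed alpha-tubulin TPM (left) and beta-tubulin TPM (right) held by each isotype (stacked colours, %) in the 9 groups (n = 3 libraries, DMSO n = 6). Tuba4a reaches 25.4% of the alpha pool with Cardamonin, and Tubb4b 38.5% and 39.4% of the beta pool with Cardamonin and AEG 3482.

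In size, the median changes of the members with the remaining 5 compounds lay between those of Podofilox (-0.03) and Cardamonin (0.50). Falls of the Tuba1 genes were common to all 5. With Antimycin A 7 of 10 members were called, 5 lower and 2 higher (37.3% of all genes called, 15.5% lower and 21.8% higher). With Dihydrorotenone 6 fell and none rose (14.4% of all genes called, 9.43% lower and 4.95% higher). With Diphenyleneiodonium Cl 5 fell and 2 rose (25.7% called, 11.7% lower and 14.0% higher). With BerberineA 6 fell and 1 rose (21.7% called, 9.16% lower and 12.6% higher). With Clofilium tosylate 6 fell and none rose (23.4% called, 12.5% lower and 10.9% higher). Without Tubb3 the 5 counts were 6, 5, 7, 7 and 5 in that order. The member medians were -0.19, -0.20, -0.24, -0.29 and -0.28 in that order, and the medians of all genes -0.03 to 0.03. The Dihydrorotenone count was 3 without its replicate 1, 2 or 3 and with median-ratio scaling. Of all genes called with Dihydrorotenone 34.4% were higher, and 53.7% with that scaling.

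Tuba1a, Tuba1b and Tuba1c fell with all 5. Tuba1c had 41.7, 44.3 and 42.7 TPM with Antimycin A, 52.2, 53.8 and 52.7 TPM with Dihydrorotenone, 41.5, 44.3 and 47.7 TPM with Diphenyleneiodonium Cl, 38.4, 45.0 and 47.8 TPM with BerberineA and 40.9, 46.1 and 41.3 TPM with Clofilium tosylate. Every one of these 15 libraries was below the lowest DMSO library (60.4 TPM). The log2 fold changes ran from -0.57 to -0.27 (SE 0.06; limma adjusted p of at most 0.00376). Those of Tuba1a ran from -0.49 to -0.25 (limma adjusted p of at most 0.00718), also without overlap with DMSO, and those of Tuba1b from -0.43 to -0.24 (limma adjusted p of at most 0.0118), with overlap for Dihydrorotenone, BerberineA and Clofilium tosylate. With Dihydrorotenone the call of Tuba1a was lost without replicate 3, and that of Tuba1b with median-ratio scaling. The alpha sums of these groups, 482 to 593 TPM, were below all DMSO libraries (612 to 751 TPM).

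The beta genes moved less evenly. Tubb4b fell with Antimycin A, Dihydrorotenone, BerberineA and Clofilium tosylate by 0.21 to 0.29 on the log2 scale (limma adjusted p of 0.00079 to 0.0219), and with Diphenyleneiodonium Cl its 77.9, 85.8 and 87.7 TPM overlapped DMSO (limma adjusted p = 0.167). The call of Tubb4b with Dihydrorotenone was lost without replicate 1, 2 or 3 of that group and with median-ratio scaling. Tubb2a fell with Diphenyleneiodonium Cl, BerberineA and Clofilium tosylate by 0.22 to 0.34 (limma adjusted p of at most 0.000716). Tubb6 fell with Diphenyleneiodonium Cl (-0.32 ± 0.06; limma adjusted p = 0.000224), and its falls of 0.20 with Dihydrorotenone and BerberineA (limma adjusted p = 0.0237 and 0.0193) were lost in 5 and 3 of 18 alternatives, among them leaving out replicate 1 of Dihydrorotenone or BerberineA. Tubb3 had 0.111 to 0.153 TPM with Antimycin A, 0.149 to 0.243 TPM with Dihydrorotenone and 0.0959 to 0.248 TPM with Clofilium tosylate, all below the DMSO libraries. The call for Dihydrorotenone was lost without replicate 1, 2 or 3.

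Antimycin A was the other compound with a marked rise of Tubb2b. Its libraries had 9.59, 11.5 and 11.3 TPM against 4.20 to 5.51 TPM with DMSO, with no overlap, and the log2 fold change was 1.03 ± 0.08 (SE; limma adjusted p = 2.28e-10). Summed with Tubb2a, the change was 0.06, with no test. Diphenyleneiodonium Cl (6.36 to 7.22 TPM; 0.45 ± 0.08; limma adjusted p = 0.000146) and BerberineA (5.73 to 6.26 TPM; 0.30 ± 0.08; limma adjusted p = 0.00843) gave smaller rises, which turned to -0.14 and -0.27 once Tubb2a was added in. Tubb2b did not pass with Dihydrorotenone (limma adjusted p = 0.218) or Clofilium tosylate (0.34). Tubb5 rose slightly with Antimycin A, to 227, 221 and 235 TPM (0.13 ± 0.04; limma adjusted p = 0.015), a call lost without Antimycin A replicate 3 (0.0941) and under 2 rescalings. The call for Tuba4a with Diphenyleneiodonium Cl (0.20 ± 0.07; limma adjusted p = 0.0476) was lost in 13 alternatives.

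Ordered by mean level, the groups formed steps of unequal clarity, judged by whether the libraries of neighbouring groups overlapped. For Tubb2b the order began with Podofilox (17.98 TPM), then Antimycin A (10.8 TPM), then Cardamonin (7.32 TPM), each apart from the next. Cardamonin and Diphenyleneiodonium Cl (6.86 TPM) overlapped, and from BerberineA (6.08 TPM) down to DMSO (4.77 TPM) every neighbour overlapped. For Tubb4b and Tubb2a AEG 3482 came first and Cardamonin second, each apart from the next. For Tuba4a Cardamonin came first and AEG 3482 second, and the other 7 groups, at 39.1 to 51.6 TPM, overlapped from one neighbour to the next. Tubb6 separated AEG 3482, Cardamonin, Podofilox and DMSO in that order. For Tuba1a, Tuba1b and Tubb5 every neighbouring pair overlapped.

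Because Cardamonin and AEG 3482 raised Tubb4b, Tubb2a and Tuba4a together, the 250 bases before the RefSeq start of each are shown (build GRCm38.p6, 5′ to 3′ on the gene's strand, all 3 genes on the minus strand). Capitals mark matches, searched on both strands, to the CCAAT box (CCAAT), the core of the antioxidant response element (TGACNNNGC), pairs of heat shock units (GAANNTTC and TTCNNGAA), the 3-unit heat shock element and the TATA box (TATAAA). The pairs GAANNTTC and TTCNNGAA can overlap in a 3-unit element. The windows are chr2:25224703-25224952 for Tubb4b, chr13:34078009-34078258 for Tubb2a and chr1:75219295-75219544 for Tuba4a.
Tubb4b: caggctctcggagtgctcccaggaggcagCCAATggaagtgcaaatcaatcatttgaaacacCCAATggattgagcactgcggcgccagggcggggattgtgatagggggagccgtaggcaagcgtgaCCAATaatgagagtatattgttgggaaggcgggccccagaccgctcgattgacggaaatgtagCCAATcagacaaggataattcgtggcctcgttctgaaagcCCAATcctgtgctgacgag
Tubb2a: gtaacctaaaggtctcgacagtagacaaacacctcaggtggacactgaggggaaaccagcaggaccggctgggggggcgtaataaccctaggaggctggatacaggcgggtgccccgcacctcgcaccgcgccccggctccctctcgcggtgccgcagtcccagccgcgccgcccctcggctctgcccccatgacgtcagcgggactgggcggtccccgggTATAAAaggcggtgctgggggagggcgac
Tuba4a: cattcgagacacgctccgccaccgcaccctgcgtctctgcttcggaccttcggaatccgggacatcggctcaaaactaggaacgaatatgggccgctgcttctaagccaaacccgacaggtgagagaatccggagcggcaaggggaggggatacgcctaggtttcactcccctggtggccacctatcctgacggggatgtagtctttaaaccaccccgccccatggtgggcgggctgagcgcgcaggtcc
RefSeq windows of 300 bases, which also take in 50 bases after the start, were found for 8 of the 10 members. None was found for Tubb2b or Tubb6, so Tubb6, which also rose with both compounds, is not shown. A CCAAT match was found in 5 of the 8 and in 37.4% of all 32851 such windows. The Tubb4b window held 5 of them, and 0.27% of all windows held 5 or more. The core TGACNNNGC was found in the windows of Tuba1a and Tuba1c (12.4% of all), TTCNNGAA in those of Tuba1c and Tubb5 (8.52% of all), and GAANNTTC (7.86%) and the 3-unit element (0.60%) in none of the 8. TATAAA was found in 2 windows, those of Tubb2a and Tubb4b (13.6% of all). The match of Tubb4b lies past the start and outside the bases shown. The Tuba4a window held none of these letters. That window lies within the gene's annotated span (1:75214228-75219865), and the bases before the upstream end of the span were not searched.

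For each member, the 3 other genes with the most similar pattern over the 9 group means were taken from 9604 genes with a mean of at least 5 TPM, by Pearson's r on log2(TPM + 1). They are a description, since the 9 means share their libraries and the genes were picked for likeness. Tuba4a was closest to Abcc4, Entpd5 and Hsp90ab1 (r of 0.994 to 0.995), the last a cytosolic chaperone gene. Tubb4b was closest to Vamp3, Btbd19 and Crybg3 (0.994 to 0.997) and Tubb2a to Trak2, Ap1s1 and Trappc1 (0.988 to 0.994). Tubb2b was closest to Irak2, Prex1 and Zfp655, with lower values of 0.958 to 0.970. Tuba1b was closest to Ehd2, Idi1 and Ptgfr (0.959 to 0.995), and Tuba1c to S100a10, Ipo13 and Dynll1 (0.975 to 0.986). For Tuba1a the 3 were Paip2, Arhgap1 and Dnhd1 (0.950 to 0.963), for Tubb5 Ptprf, Fgd1 and Tdrd7 (0.931 to 0.943), for Tubb6 Eif1ad, Crk and Ppa1 (0.984 to 0.989), and for Tubb3 Rnf145, Dhx9 and Wdr37 (0.991 to 0.994). Among members, Tubb2a and Tubb4b were most alike (0.975), and Tuba1b and Tubb2b least (-0.553).

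Other genes of the tubulin pathway were described by lists. Of 12 further tubulin genes 3 were tested, and the others, among them the platelet isotype Tubb1 and the neural isotype Tubb4a, stayed low (at most 0.492 TPM on average in DMSO). Tubg1, the gamma-tubulin that seeds microtubules, rose with Podofilox from 20.1 ± 1.4 TPM (SD, n = 6) to 25.9 ± 1.9 TPM (n = 3), a log2 change of 0.36 ± 0.06 (SE; limma adjusted p = 4.24e-05), and also with Cardamonin (0.45) and AEG 3482 (0.57). Its paralog Tubg2 fell with the same compounds, by 0.26, 1.16 and 0.81 on the log2 scale (limma adjusted p of at most 0.0147). Tubd1, the delta-tubulin of centrioles, fell with them as well, by 0.41, 0.76 and 0.34.

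Of 15 genes of the autoregulation machinery, 14 were tested, and with Podofilox 2 rose and none fell, where 46.2% of all genes were called, with a median of 0.09 against 0.04 over all genes. Those that rose were the CCR4-NOT subunits Cnot9 (0.24 ± 0.05 SE; limma adjusted p = 0.000152) and Cnot6 (0.26 ± 0.09; limma adjusted p = 0.0152), the latter with libraries that overlapped DMSO. Ttc5, the factor that recognises new tubulin, had 25.6 ± 0.5 TPM with Podofilox and 25.7 ± 0.8 TPM with DMSO (limma adjusted p = 0.938). It rose with Cardamonin (0.25; limma adjusted p = 4.05e-05) and Antimycin A (0.15; limma adjusted p = 0.0122). Scaper was listed near 0 in all groups (at most 0.130 TPM on average). With Cardamonin 5 of the 14 rose and 2 fell (70.3% of all genes called), and with AEG 3482 6 rose and 1 fell (68.1%).

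Of 13 tubulin folding cofactors and prefoldin subunits, which fold and pair new tubulin, 2 rose and 1 fell with Podofilox (46.2% of all genes called), with a median of 0.09 against 0.04 over all genes. Tbcd, a cofactor that handles beta-tubulin, rose by 0.35 ± 0.06 (SE; limma adjusted p = 4.9e-05), and the prefoldin subunit Pfdn5 fell by 0.26. With Cardamonin 7 rose and 3 fell (70.3% of all genes called), led by Pfdn2 (0.72) and Tbce (0.62) and by falls of Arl2 (-0.53) and Pfdn5 (-0.51). With AEG 3482 5 rose and 2 fell (68.1%), led by Tbcc (0.64). Of 15 tested enzymes that modify tubulin, 4 rose and 2 fell with Podofilox, again beside 46.2% of all genes, with a median of 0.05. Vash2, a carboxypeptidase that removes the terminal tyrosine of alpha-tubulin, rose from 8.77 ± 0.62 TPM in DMSO to 20.04 ± 1.12 TPM with Podofilox (1.11 ± 0.07; limma adjusted p = 1.4e-12), 44.9 ± 6.1 TPM with Cardamonin (2.23) and 21.7 ± 2.2 TPM with AEG 3482 (1.21). With Podofilox the glutamylase gene Ttll4 also rose (0.65 ± 0.10; limma adjusted p = 6.72e-06).

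Of 26 tested genes whose proteins bind, sever or depolymerise microtubules, 13 rose and 4 fell with Podofilox, 15 rose and 6 fell with Cardamonin, and 17 rose and 5 fell with AEG 3482, where 46.2%, 70.3% and 68.1% of all genes were called. Their medians were 0.10, 0.29 and 0.36, and those of all genes 0.04, 0.03 and 0.10. Arhgef2, which encodes the microtubule-bound protein GEF-H1, rose from 47.0 ± 4.8 TPM to 103 ± 5 TPM with Podofilox (1.11 ± 0.09 SE; limma adjusted p = 2.8e-10). Stmn1, which encodes the dimer-binding protein stathmin, rose with all 8 compounds, by 0.34 (Dihydrorotenone) to 1.19 (Antimycin A), and by 0.97 with Podofilox. Stmn2, a neuronal relative, fell with Podofilox (-0.98; limma adjusted p = 1.62e-08). Kif2a, a depolymerising kinesin, rose by 1.88 with Cardamonin, 1.63 with AEG 3482 and 0.43 with Podofilox, and Map1a by 1.54, 1.21 and 0.23. Of 10 genes of the gamma-tubulin ring, 2 rose and 1 fell with Podofilox, 4 rose and 2 fell with Cardamonin and 4 rose and 1 fell with AEG 3482, beside the same shares of all genes, led by Tubgcp4 (0.33, 1.45 and 1.08).

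Markers of division are given beside these values. Of 8 tested mitosis markers 3 fell and none rose with Podofilox, 4 fell and 1 rose with Cardamonin, and 2 fell and 2 rose with AEG 3482, beside 46.2%, 70.3% and 68.1% of all genes called. Their medians were -0.19, -0.38 and -0.07. Cdk1, the mitotic kinase, had 31.6 ± 0.8 TPM in DMSO (SD, n = 6), 21.1 ± 1.0 TPM with Podofilox, 9.54 ± 1.08 TPM with Cardamonin and 7.68 ± 2.34 TPM with AEG 3482 (n = 3 each; limma adjusted p of at most 0.000101), and 50.5 ± 2.8 TPM with Antimycin A. The part of cell division in the tubulin values was not tested. Of 8 other cytoskeleton genes 5 fell and 3 rose with Podofilox (46.2% of all genes called), among them the actin genes Actb (-0.63; limma adjusted p = 7.71e-08) and Actg1 (-0.84; limma adjusted p = 1.28e-12) and moesin, Msn (0.94; limma adjusted p = 8.58e-16).

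All 10 fibroblast markers averaged 1 TPM or more in every group, with a summed level of 7124 to 9128 TPM with Cardamonin, 11950 to 15910 TPM in the other compounds apart from AEG 3482, 16910 to 19010 TPM with AEG 3482 and 16520 to 18980 TPM with DMSO. Of the 8 neuron markers none reached a mean of 1 TPM in any group, their sum was at most 1.23 TPM in any library, and Rbfox3 was at 0 in every library of 7 groups. Epithelial and skeletal muscle markers were likewise below 1 TPM. Of 5 leukocyte markers 2 reached 1 TPM (sums of 16.4 to 44.0 TPM, highest with Cardamonin), and Cd3e was at 0 in every library of 8 groups. Of 4 endothelial markers at most 1 did (sums of 1.09 to 8.71 TPM), and of 4 platelet markers 2 or 3 (9.96 to 34.9 TPM, highest with AEG 3482). Their part in the tubulin values was not tested, and in such bulk samples fewer cells of a type and less RNA per cell cannot be told apart. The number of genes with at least 1 TPM was 12229 to 12700 per library, and TPM carry no depth.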

How the data were processed

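Total RNA of 30 libraries, depleted of ribosomal RNA, was sequenced. Per the submitters' processing notes the authors used FastQC and kallisto 0.43.1 with mm10, and per the series text tximport and DESeq2. The deposited values are TPM per gene, and the listed genes sum to 927024 to 937134 per library (92.7% to 93.7% of the full total). They keep no read depth, so no counting interval is given. Whether counting used strand is not given in the sources used here.

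Symbols came from GENCODE M21 (29505 of 29861 identifiers matched). Here log2(TPM + 1) of the 13644 genes that reached 1 TPM in 3 or more libraries was fitted with limma 3.58.1 (R 4.3.3), all 30 libraries, 1 mean per group and an intensity trend. Benjamini-Hochberg adjustment ran over all tested genes with a threshold of 0.05. The fit was tested on simulated data. Fold changes on this scale understate those of low genes.

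The members and lists were chosen with earlier results of these data known. All 10 members are named, and from each list up to 2 called genes per direction and compound that averaged 5 TPM or more in the higher group with no overlap with DMSO. Tubulin, autoregulation and comparator genes could be named whatever their value, and Kif2a and Map1a with Podofilox, Stmn1 with every compound and Cdk1 with Antimycin A were added after their values were seen. The like patterns follow a mean of at least 5 TPM. Alternatives were pseudocount, filter, scaling, trend, groups in the fit, replicate block, summed families and leaving out each library. All 6 libraries labelled DMSO were used, although the series text counts 5.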

Additional observations from a re-analysis of the deposited data

How the results depend on the processing

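Of 80 tests of a member against DMSO, 56 were called, and 43 of these stayed called with the same sign in every alternative that was tested. Sums of genes that share sequence have no test, so they do not enter these counts or those that follow. Of 70 tests of Podofilox against another compound, 47 were called and 39 stayed so. Of the tests not called, 9 of 24 and 8 of 23 stayed uncalled throughout. The 6 members called with Dihydrorotenone against DMSO became 3 with median-ratio scaling, 3 with only the 2 groups in the fit and 3 with the replicate block, and ranged from 3 to 6 when 1 library was left out. The 5 called with Podofilox against Dihydrorotenone became 3 with no filter on low values and ranged from 3 to 5 when 1 library was left out. For the other 13 comparisons the count of members stayed within 1.5 times. Of all genes, 1963 were called with Dihydrorotenone, 898 with only the 2 groups in the fit, and 1233 and 1266 without its replicate 1 and 2. Between Podofilox and Dihydrorotenone 61.6% of called genes were higher, and 49.7% with median-ratio scaling. The sign turned for Tuba1b with AEG 3482 under quantile normalization (-0.0125; adjusted p = 0.879). Summing genes that share sequence turned Tubb2b with Diphenyleneiodonium Cl (-0.14) and BerberineA (-0.27), and, between Podofilox and another compound, Tubb2b against Cardamonin (-0.43) and AEG 3482 (-0.77), Tuba1b against Dihydrorotenone (0.0303) and Tuba1c against Cardamonin (0.22). For the sums the added genes set the value, and for the other settings the cause was not tested. Same-numbered libraries of a compound and DMSO had correlations of -0.0545 to 0.12. Same-numbered libraries of different compounds were not compared, so whether the numbers mark a shared batch was not tested. The replicate block is given here alone.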
